A study of Homo sapiens with 10 samples.

Results

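AKAP12, CD44, EDN1, S100A3 and UBD are 5 of the 22392 genes that the array measures with a transcript cluster of their own, a cluster being the group of probes that stands for 1 gene or transcript. They were taken by gene symbol and had been chosen by their measured change with sorafenib, as the named genes in which it was most negative in shRb cells relative to Huh7 cells among those past an adjusted p of 0.05 for that difference. These changes are given below as a description, with no test. In each gene the level was lower with sorafenib in shRb cells and higher with sorafenib in Huh7 cells. Treated and control arrays did not overlap in either line, except at a second, dim cluster of CD44 that overlapped in both. The choice of genes favours such separation, and the share of all genes without overlap is not given, so nothing is read from it. By limma 3.74% of all genes were lower with sorafenib in shRb cells and 1% higher in Huh7 cells, from which nothing is read here, since these changes chose the genes. To call the response smaller in shRb cells would go against the size of the changes. For 5 of 5 genes the estimated change was larger in shRb cells than in Huh7 cells, and it ran the other way.

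RNA was measured on 10 Affymetrix HuGene 2.1 ST arrays, 1 per sample. Cells labelled shRb gave 3 arrays after 10 μM sorafenib for 9 h (replicates 10, 11 and 12) and 3 control arrays (replicates 7, 8 and 9). Huh7 cells gave 2 arrays at the same dose and time (replicates 5 and 6) and 2 control arrays (replicates 1 and 3). Control cells are labelled as having no treatment, and a vehicle is not mentioned. Both lines are described as hepatocarcinoma cells. Huh7 cells derive from a liver tumour (hepatocellular carcinoma), and sorafenib is a drug against RAF kinases and several receptor tyrosine kinases. The labels do not explain the name shRb, nor whether these cells were a clone or a pool. Levels are log2 values, so that a difference of 1 is a doubling.

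The genes encode proteins of different kinds. AKAP12 is a scaffold that holds protein kinases A and C at the plasma membrane. CD44 is a transmembrane receptor for hyaluronan, linked to the actin cortex inside the cell by ezrin, radixin and moesin. EDN1 encodes the precursor of endothelin-1, a vasoactive peptide that endothelial cells and some tumour cells secrete. S100A3 is a cysteine-rich calcium-binding protein known from the cuticle of hair. UBD, also called FAT10, is a ubiquitin-like modifier that directs proteins to the proteasome, and tumour necrosis factor and interferon gamma induce it. Sorafenib acts on RAF, which lies above the kinases MEK and ERK, so genes switched on by ERK are a known readout of the drug.

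Promoter sequences are shown because the 5 genes changed side by side in the same cells. All 5 had an entry in the RefSeq table of GRCh38.p14, and the 250 bases before each listed start were searched on both strands for 7 motifs. The 3 genes with a single listed start are printed from 5′ to 3′ on the strand of the gene, with motif matches in capitals. The window of CD44 is chr11:35138921-35139170 (plus strand), that of S100A3 is chr1:153549259-153549508 (minus strand), and that of UBD is chr6:29559733-29559982 (minus strand).
CD44: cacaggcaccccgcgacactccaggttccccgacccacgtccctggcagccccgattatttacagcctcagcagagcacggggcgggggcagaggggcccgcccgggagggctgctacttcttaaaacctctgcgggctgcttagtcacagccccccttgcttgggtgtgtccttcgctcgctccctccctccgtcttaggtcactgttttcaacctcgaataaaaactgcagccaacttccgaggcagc
S100A3: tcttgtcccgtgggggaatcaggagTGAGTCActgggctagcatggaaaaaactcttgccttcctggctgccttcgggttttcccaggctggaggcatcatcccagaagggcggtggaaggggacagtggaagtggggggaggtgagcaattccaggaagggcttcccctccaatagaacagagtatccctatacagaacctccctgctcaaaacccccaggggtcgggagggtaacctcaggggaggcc
UBD: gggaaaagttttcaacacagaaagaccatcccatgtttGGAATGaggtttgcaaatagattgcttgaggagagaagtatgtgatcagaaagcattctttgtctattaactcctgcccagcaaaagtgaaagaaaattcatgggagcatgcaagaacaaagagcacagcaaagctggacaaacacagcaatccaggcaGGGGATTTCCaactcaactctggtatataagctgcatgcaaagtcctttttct
S100A3 held an AP-1 site (TGANTCA) that began 225 bases before the start. UBD held a TEAD site (GGAATG) that began 212 bases before the start and an NF-kB site (GGG, any 2 bases, then TTTCC) that began 53 bases before it. CD44 held none of the 7 motifs. AKAP12 has 3 listed starts, and their windows held an ETS site (CCGGAA) at 178 bases, a TEAD site at 157 bases and an NF-kB site at 218 bases, 1 in each window. EDN1 also has 3 listed starts, and the window of 1 of them held a TEAD site at 129 bases. Among 35116 windows of the same length, AP-1 letters occurred in 6.57%, TEAD letters in 11.9%, NF-kB letters in 1.73% and ETS letters in 14.5%. The other motifs were CRE (TGACGNCA, 3.06%), E2F (TTTNGCGC, 1.51%) and SMAD (GTCTAG, 4.92%), which none of the windows of the 5 genes held. The motifs do not overlap in the printed windows, and no motif was shared by all 5 genes. A match gives the letters only and was not tested as a binding site.

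The labels were checked on RB1, the retinoblastoma gene. RB1 levels ran from 5.35 to 6.12 on the 6 shRb arrays and from 7.94 to 8.18 on the 4 Huh7 arrays, a mean difference of -2.30 (SE 0.15), 4.93-fold lower in shRb cells (adjusted p = 4.37e-05, limma). Of 20 hepatocyte markers 19 lay above the median of the array in every group, beside 5 to 7 of 13 endothelial, 7 to 8 of 14 leukocyte and 8 of 12 fibroblast and stellate markers. Some of these were bright in the group means, such as LYZ (10.78 to 11.12), FN1 (11.21 to 11.42), CD68 (7.71 to 8.72) and LCP1 (7.45 to 7.80). From the endothelial, leukocyte and fibroblast lists, CDH5 (3.29 to 3.40), PTPRC (1.60 to 1.72) and DCN (1.73 to 1.81) stayed near or below the array medians of 3.39 to 3.42. These single markers do not stand for their lists. The mean level of 13 endothelial markers ran from 3.24 to 3.41 and from 3.28 to 3.46 in treated and control shRb cells, and from 3.37 to 3.45 and from 3.35 to 3.39 in treated and control Huh7 cells. The 14 leukocyte markers averaged 4.36 to 4.58 and the 12 fibroblast and stellate markers 4.19 to 4.41 over the 10 arrays. Over both treatments ESAM (-0.68, adjusted p = 0.00451, limma), CD68 (-0.73, adjusted p = 0.00472), ITGAM (-0.99, adjusted p = 0.000714) and LUM (-0.36, adjusted p = 0.0227, held in 4 of 10 fits with an array left out) were lower in shRb cells, and 0 of the 39 markers of the 3 lists were higher (2 at an unadjusted p under 0.05). Of the 20 hepatocyte markers 4 were higher and 1 lower in shRb cells, beside 3.06% and 2.91% of all genes. Among them were ALB (0.47, adjusted p = 0.00589, limma) and AFP (-0.71, adjusted p = 0.00118). The part of all these markers in the differences between the lines given below was not tested. Correlations between arrays over all clusters were 0.984 to 0.990 within a group, and 0.975 to 0.987 between lines, ranges that overlap. In bulk RNA, fewer cells that express a gene and less RNA per cell cannot be told apart.

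AKAP12 (cluster 17013773) measured 6.16, 6.03 and 5.99 in sorafenib-treated shRb cells, against 7.59, 7.53 and 7.63 in control shRb cells. It measured 7.12 and 6.90 in sorafenib-treated Huh7 cells, against 6.44 and 6.23 in control Huh7 cells. Untreated shRb cells thus stood highest of the 4 groups and treated shRb cells lowest, below the untreated Huh7 cells. The change with sorafenib was -1.52 (SE 0.11, 95% interval -1.76 to -1.28) in shRb cells, a level 2.87-fold lower. In Huh7 cells it was 0.68 (SE 0.13, 95% interval 0.38 to 0.97), a level 1.60-fold higher. The group means were 6.06 ± 0.09 and 7.58 ± 0.05 in treated and control shRb cells (SD, n = 3 each), and 7.01 ± 0.16 and 6.33 ± 0.15 in treated and control Huh7 cells (SD, n = 2 each). AKAP12 therefore had a small spread within groups.

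UBD (cluster 17016692) had the most negative difference between the changes of the lines, the value that chose the genes. It measured 4.85, 5.19 and 4.49 in treated shRb cells, against 6.45, 6.53 and 6.67 in control shRb cells. In Huh7 cells it measured 5.91 and 5.69 with sorafenib, against 4.13 and 5.03 without. The control Huh7 arrays were further apart than the arrays of any other group of UBD, and replicate 1 was the lower. The change was -1.71 (SE 0.23, 95% interval -2.23 to -1.19) in shRb cells, 3.27-fold lower, and 1.22 (SE 0.29, 95% interval 0.58 to 1.86) in Huh7 cells, 2.32-fold higher. The Huh7 change was 0.77 without control replicate 1 and 1.66 without control replicate 3, so its size rests on 1 array. A further cluster carries both UBD and its neighbour GABBR1 and cannot be given to UBD alone. It measured 6.85, 7.03 and 6.84 in treated shRb cells, against 7.83, 7.86 and 7.90 in control shRb cells, and 7.38 and 7.42 in treated Huh7 cells, against 6.72 and 6.80 in control Huh7 cells. This shared cluster had the same order of groups, with changes of -0.96 in shRb cells and 0.64 in Huh7 cells. The cluster of GABBR1 alone, a receptor subunit for gamma-aminobutyric acid, changed by -0.07 in shRb cells and 0.27 in Huh7 cells (adjusted p = 0.817 and 0.417, limma).

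EDN1 (cluster 17004903) measured 6.33, 5.98 and 5.99 in treated shRb cells, against 7.48, 7.48 and 7.92 in control shRb cells. In Huh7 cells it measured 7.28 and 7.22 with sorafenib, against 7.00 and 6.77 without. The Huh7 groups were close. The change was -1.53 (SE 0.15, 95% interval -1.87 to -1.19) in shRb cells, 2.88-fold lower. In Huh7 cells it was 0.37 (SE 0.19), 1.29-fold higher, with a 95% interval of -0.04 to 0.79 that includes no change. EDN1 was the only gene of the 5 whose Huh7 interval included 0.

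CD44 is measured by 2 clusters. The brighter one (cluster 16723614) measured 2.53, 2.98 and 2.91 in treated shRb cells, against 4.06, 3.95 and 3.86 in control shRb cells. It measured 4.64 and 4.82 in treated Huh7 cells, against 3.79 and 3.83 in control Huh7 cells. Control cells of the lines lay within 0.15 of each other in their means, and treated cells of the lines stood far apart. The change was -1.15 (SE 0.13, 95% interval -1.45 to -0.86) in shRb cells, 2.23-fold lower, and 0.92 (SE 0.16, 95% interval 0.56 to 1.28) in Huh7 cells, 1.90-fold higher. In treated shRb cells CD44 lay between the percentiles 30.3 and 41.0 of all clusters on the array, so part of this difference was read at a dim level. The second cluster (16723653) measured 3.02, 2.74 and 2.92 in treated shRb cells, against 2.86, 3.18 and 2.73 in control shRb cells. It measured 3.02 and 2.34 in treated Huh7 cells, against 2.80 and 2.45 in control Huh7 cells, so that it lay below the median of each array and its groups overlapped. Its changes were -0.03 (95% interval -0.46 to 0.40) in shRb cells and 0.05 (95% interval -0.48 to 0.58) in Huh7 cells, so the 2 clusters of CD44 disagree.

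S100A3 (cluster 16693459) measured 4.08, 4.29 and 4.51 in treated shRb cells, against 5.51, 5.33 and 5.82 in control shRb cells. It measured 6.59 and 6.81 in treated Huh7 cells, against 6.02 and 6.14 in control Huh7 cells. All 6 shRb arrays lay below all 4 Huh7 arrays, which was true of no other gene of the 5. The change with sorafenib was -1.26 (SE 0.15, 95% interval -1.61 to -0.92) in shRb cells, 2.40-fold lower. In Huh7 cells it was 0.62 (SE 0.19, 95% interval 0.20 to 1.04), 1.53-fold higher.

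**Figure D1:**
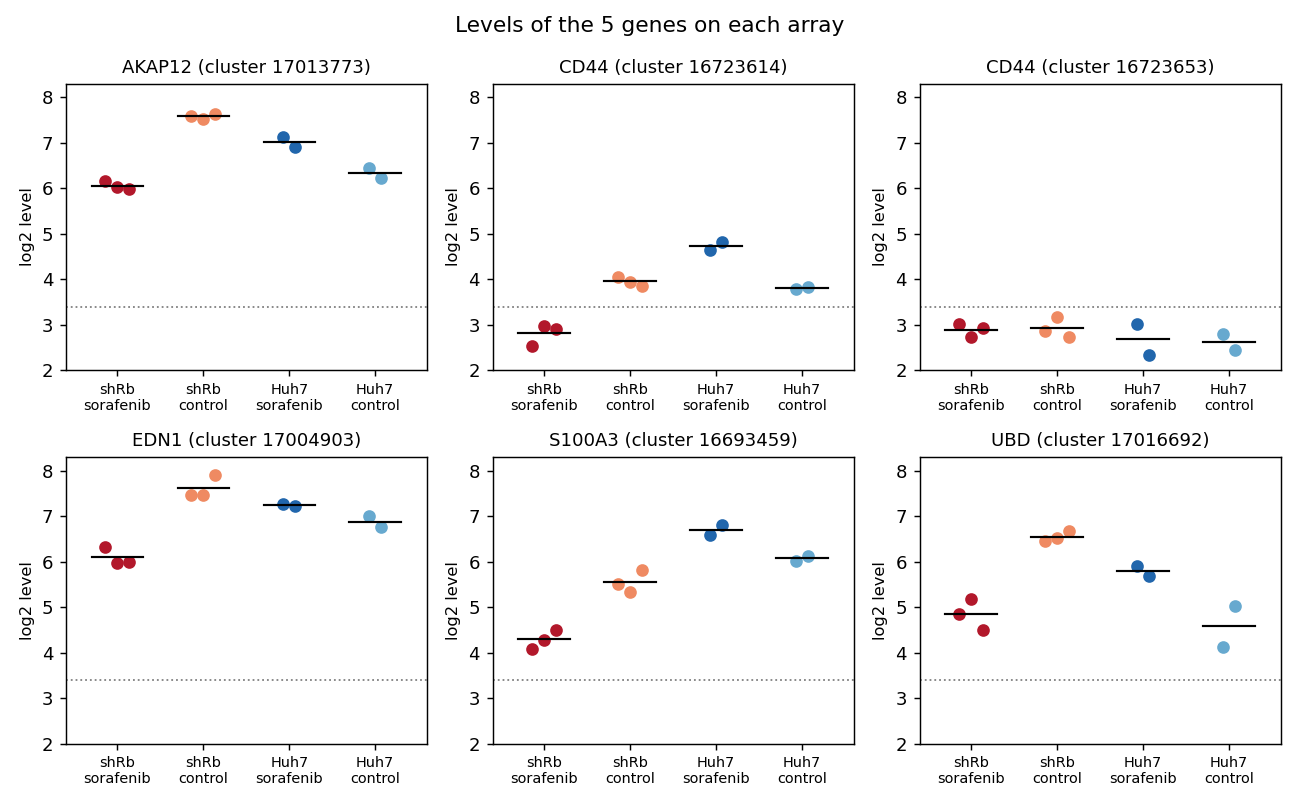
Log2 level of each gene on every array (points), with the group mean (line) and the median of all clusters (dotted line), for shRb cells with sorafenib and control (3 arrays each) and Huh7 cells with sorafenib and control (2 arrays each). In 5 of the 6 panels the treated shRb arrays lie below the control shRb arrays and the treated Huh7 arrays above the control Huh7 arrays. The choice of genes favours such separation, and nothing is read from it. The second CD44 cluster lies below the dotted line in all groups.

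**Figure D2:**
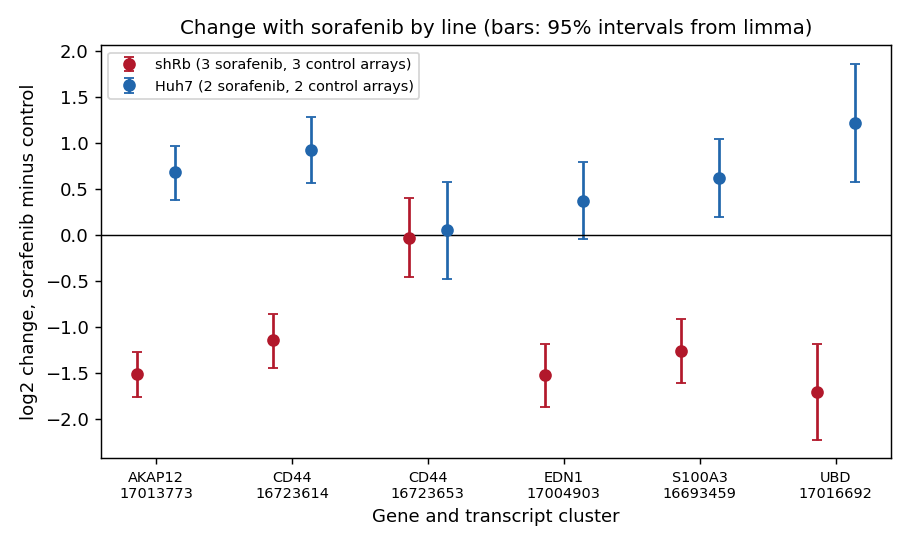
Change in log2 level with sorafenib (sorafenib minus control) for each gene and cluster in shRb cells (3 against 3 arrays) and Huh7 cells (2 against 2), with 95% intervals from limma as bars. Changes in shRb cells run from -1.15 for CD44 to -1.71 for UBD, those in Huh7 cells from 0.37 for EDN1 to 1.22 for UBD, and the second CD44 cluster is close to 0 in both lines.

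The difference between the 2 changes, shRb minus Huh7, was the value that chose the genes. It was -2.93 (SE 0.37) for UBD, -2.20 (SE 0.17) for AKAP12, -2.08 (SE 0.21) for CD44, -1.90 (SE 0.24) for EDN1 and -1.88 (SE 0.24) for S100A3. For the second CD44 cluster it was -0.08 (SE 0.30). In the fit over all clusters, 16 of 22392 genes (0.0715%) passed an adjusted p of 0.05 in this direction. The 5 genes had the most negative differences of the 16. Next in size inside the threshold was MYOF, a membrane-repair protein of the ferlin family, at -1.73, and the last inside by p was TMOD1, a protein that caps actin filaments, at -1.37. The nearest outside by p were CEMIP at -1.17, ACSL5 at -2.02 and TGFB1I1 at -1.93. Leaving out each array in turn left between 1 (without Huh7 control replicate 1) and 17 (without shRb sorafenib replicate 10) of all clusters past this threshold, against 21 with every array, so the list around the 5 genes depends on single arrays.

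The order of the lines turned with treatment in 4 of the 5 genes, though for CD44, at its brighter cluster, the untreated lines stood close. In treated cells, shRb minus Huh7 was -0.95 for AKAP12, -1.16 for EDN1 and -0.96 for UBD. In untreated cells the same difference was 1.25 for AKAP12 (2.37-fold higher in shRb cells), 0.74 for EDN1 (1.68-fold higher) and 1.97 for UBD (3.91-fold higher). CD44 differed by -1.93 in treated cells and 0.15 in untreated cells. S100A3 differed by -2.41 in treated cells and -0.53 in untreated cells, and so was lower in shRb cells under both conditions. Since the difference between these pairs of values is the value that chose the genes, none of them was tested.

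The mean difference between the lines over both treatments has an estimation error uncorrelated with that of the value that chose the genes. It is built from the same treated and untreated differences, and so is not independent of the choice. For CD44 it rests on the treated cells, where the lines differed by -1.93, against 0.15 in untreated cells. By this measure S100A3 was 2.76-fold lower in shRb cells (log2 difference -1.47, SE 0.12, adjusted p = 0.000198, limma) and CD44 1.85-fold lower (-0.89, SE 0.10, adjusted p = 0.00152). Among all genes 2.91% were lower in shRb cells by this test, against 2 of the 5, and 3.06% were higher, against 0 of the 5. Nothing is read from these counts, since the differences averaged here also gave the value that chose the genes. The estimate of the spread in these tests is shared with the choice of the genes. With an array left out the difference ran from -1.53 to -1.41 for S100A3 and from -0.94 to -0.82 for CD44. In those fits the group sizes change and the errors are no longer uncorrelated, so these values are a description. AKAP12 (0.15, SE 0.08, adjusted p = 0.483), EDN1 (-0.21, SE 0.12, adjusted p = 0.502) and UBD (0.51, SE 0.18, adjusted p = 0.210) did not pass, nor did the second CD44 cluster (0.25, SE 0.15, adjusted p = 0.518). The labels do not give the strip or day of each array, so a batch and the line cannot be told apart in this comparison.

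The mean change with sorafenib over both lines, weighted 0.6 for shRb cells and 0.4 for Huh7 cells by the number of arrays, has an estimation error uncorrelated with that of the value that chose the genes, but it is built from the same 2 changes. It averages changes that ran opposite ways, and so describes neither line. It was -0.77 (SE 0.12, adjusted p = 0.00359, limma) for EDN1, -0.64 (SE 0.08, adjusted p = 0.00137) for AKAP12 and -0.51 (SE 0.12, adjusted p = 0.0283) for S100A3. It was -0.54 (SE 0.18, adjusted p = 0.116) for UBD and -0.32 (SE 0.10, adjusted p = 0.0942) for CD44, which did not pass. Of the 5 genes 3 passed as lower, beside 5.25% of all genes, and nothing is read from that count, since the genes were chosen by the changes it averages. The estimate of the spread is also shared with the choice. With an array left out the mean change ran from -0.69 to -0.60 for AKAP12 and from -0.84 to -0.68 for EDN1. The weights no longer make the errors uncorrelated in fits with an array left out, so those fits are a description. S100A3 passed in 3 of the 10 fits with an array left out, those without Huh7 replicate 6 or shRb replicates 8 or 12 (highest adjusted p 0.0863), and UBD only without Huh7 control replicate 1 (adjusted p = 0.026).

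Over the 10 arrays the 5 genes fell into profiles that differed in where the Huh7 arrays stood. Levels of AKAP12 correlated with those of EDN1 (Pearson's r 0.934) and UBD (0.901), and CD44 with S100A3 (0.941). The lowest correlation was between S100A3 and UBD (0.288). The points share 4 groups and the changes that chose the genes, so these are descriptions. Among 14290 genes above the median level, those whose levels were most like AKAP12 were CXCL5 (0.984), LMCD1 (0.968) and PITRM1 (0.951). CXCL5 is a chemokine that attracts neutrophils, and it averaged 9.77 and 10.70 in treated and control shRb cells, and 10.34 and 9.83 in treated and control Huh7 cells. Those most like EDN1 were UBASH3B (0.970), NFE2L3 (0.965) and ITGAV (0.958), the last an integrin subunit. Those most like UBD were PALLD (0.955), GPRC5C (0.917) and STPG1 (0.905), and PALLD is an actin-bundling protein. Those most like CD44 were PLXND1 (0.965), CNN1 (0.963) and CAV1 (0.961), a semaphorin receptor, an actin-binding calponin and the coat protein of caveolae. Those most like S100A3 were EMP3 (0.990), MYL9 (0.984) and CAPN2 (0.980), of which MYL9 is a myosin light chain and CAPN2 a calcium-dependent protease. CXCL5, UBASH3B and CNN1 are themselves among the 16 genes past the threshold that chose the 5.

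The 11 other genes of those 16 were MYOF, ANXA3, TNFRSF9, CXCL5, GJA1, ANXA1, IL31RA, CNN1, UBASH3B, CAVIN1 and TMOD1. All 16 had a change below 0 in shRb cells, 14 had a change above 0 in Huh7 cells, and in 13 the change was larger in size in shRb cells. GJA1, a gap junction protein, was lower with sorafenib in both lines, at 7.54 and 9.50 in treated and control shRb cells and at 8.97 and 9.46 in treated and control Huh7 cells. CAVIN1, which helps to form caveolae, was the other exception, with -1.27 in shRb cells and -0.12 in Huh7 cells. In the mean difference between the lines 5 of the 11 were lower in shRb cells, among them MYOF (-1.21, adjusted p = 4.14e-05, limma) and IL31RA (-1.01, adjusted p = 0.000378). CAVIN1 (0.55, adjusted p = 0.00347) and TMOD1 (0.56, adjusted p = 0.00893) were higher. Among all genes 2.91% were lower and 3.06% higher by this test. Nothing is read from these counts and p-values, since the 11 genes were picked from the same group means and spread.

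The genes next to each of the 5 on its chromosome were looked at after the values had been seen. The 20 neighbours are the 2 nearest protein-coding genes on each side with a cluster of their own. Only ZBTB2 beside AKAP12 passed in shRb cells (0.78, adjusted p = 0.00105, limma), upward and so opposite to AKAP12. In shRb cells 6 of the 20 were at an unadjusted p under 0.05. In Huh7 cells 0 passed, with 2 at an unadjusted p under 0.05. In shRb cells 6.70% of all genes passed in either direction and in Huh7 cells 1.90%. S100A3 lies in a cluster of S100 genes on chromosome 1. Its neighbours S100A4 (-0.16 in shRb cells, 0.44 in Huh7 cells), S100A2 (-0.06 and 0.01), S100A5 (0.10 and 0.43) and S100A16 (-0.48 and 0.09) did not pass. S100A16 was the closest to the threshold of these in shRb cells (adjusted p = 0.0773, limma). It was lower in shRb cells over both treatments (-0.65, adjusted p = 0.00946).

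Partners of the 5 genes were counted in lists that leave the 5 out. Among all genes, 2.96% rose and 3.74% fell with sorafenib in shRb cells, and 1% rose and 0.893% fell in Huh7 cells. The endothelin list holds the converting enzymes, the receptors and the other endothelins, and 0 of its 7 measured genes passed in either line by limma, nor did any have an unadjusted p under 0.05. ECE1, the enzyme that cleaves the precursor of endothelin-1, changed by 0.03 in shRb cells and 0.08 in Huh7 cells (adjusted p = 0.952 and 0.896). EDNRB, a receptor of endothelin-1, changed by -0.16 and 0.23 (adjusted p = 0.535 and 0.555), and EDNRA had no cluster of its own. In the group means EDNRB was dim, at 2.16 to 2.43, and ECE1 stood at 7.47 to 7.55. Of the 7 genes 5 had a mean above the median of all clusters. The change of EDN1 in shRb cells thus stood beside no called change in these genes, and for dim genes this says little.

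Of 26 partners of CD44 and hyaluronan, 4 fell and 1 rose in shRb cells and 0 changed in Huh7 cells (3 at an unadjusted p under 0.05). HAS2, a hyaluronan synthase, fell in shRb cells (-0.61, adjusted p = 0.0114, limma), as did CEMIP2 (-1.14, adjusted p = 0.00114) and CEMIP (-0.98, adjusted p = 0.000735), related genes linked to the breakdown of hyaluronan. In treated and control shRb cells HAS2 (2.83 and 3.44) and CEMIP (2.57 and 3.55) were dim, near or below the array medians of 3.39 to 3.42. CEMIP2 was bright (8.40 and 9.54). SPP1, which encodes the CD44 ligand osteopontin, was lower with sorafenib in shRb cells (-0.82, adjusted p = 0.0127, not past the threshold without shRb control replicates 8 or 9). SPP1 was also lower in shRb cells over both treatments (-2.52, adjusted p = 4e-06). The change in Huh7 cells was -0.26 for HAS2, -0.64 for CEMIP2, 0.18 for CEMIP and -0.15 for SPP1 (adjusted p from 0.0766 to 0.818). SLC7A11, the cystine transporter that a CD44 variant stabilizes, rose in shRb cells (0.56, adjusted p = 0.0461), a call lost without any single array. The cortical linkers EZR (-0.19 in shRb cells, -0.05 in Huh7 cells), RDX (-0.17 and -0.02) and MSN (0.02 and -0.02) did not pass. MSN was dim, at 2.84 to 3.06 in the group means.

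Among 24 S100 proteins and their partners, 1 fell and 0 rose in shRb cells, and 0 changed in Huh7 cells by limma (5 at an unadjusted p under 0.05). The gene that fell was ANXA1, a membrane-binding annexin. It was at 6.56 and 7.86 in treated and control shRb cells (change -1.30, adjusted p = 0.000144, limma), and at 7.95 in both treated and control Huh7 cells (0.01, adjusted p = 0.994). Over both treatments 4 of the 24 were lower in shRb cells: ANXA1 (-0.74, adjusted p = 0.000587), S100A11 (-0.78, adjusted p = 0.00087), S100A16 (-0.65, adjusted p = 0.00946, lost without Huh7 control replicate 3) and S100A6 (-0.60, adjusted p = 0.0263). With an array left out this count ran from 2 to 5, and the call of S100A6 held in 4 of 10 fits. S100A3 had the same direction with a larger difference. PADI3, the enzyme that deiminates S100A3 in hair, changed by -0.02 in shRb cells and 0.09 in Huh7 cells (adjusted p = 0.959 and 0.856).

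The kinase partners of AKAP12 and the conjugation partners of UBD changed little. Of 25 anchoring proteins and protein kinase A subunits, 1 rose in shRb cells (AKAP9, 0.42, adjusted p = 0.0481, limma) and 1 in Huh7 cells (AKAP7, 0.72, adjusted p = 0.0454), and the first call was lost without any single array and the second in 8 of 10 fits. Of 15 partners of UBD, 1 passed in shRb cells and 0 in Huh7 cells (0 there also at an unadjusted p under 0.05). UBE2Z, its conjugating enzyme, was lower in shRb cells (-0.43, adjusted p = 0.0358), past the threshold in 2 of 10 fits with an array left out. UBA6, the enzyme that activates UBD, changed by 0.05 and -0.08 in shRb and Huh7 cells (adjusted p = 0.909 and 0.899). HDAC6, which binds UBD, was higher in shRb cells over both treatments (0.50, adjusted p = 0.00712).

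Of 35 genes of the interferon and tumour necrosis factor response, the setting in which UBD is known to be induced, 3 rose and 1 fell in shRb cells, and 6 rose and 0 fell in Huh7 cells. TNFAIP3, an inhibitor of NF-kB signalling, rose in both lines, by 1.91 in shRb cells (adjusted p = 7.97e-05, limma) and 2.44 in Huh7 cells (adjusted p = 0.000255). The transcription factor IRF1 likewise rose by 1.39 in shRb cells (adjusted p = 0.000356) and 1.17 in Huh7 cells (adjusted p = 0.00568, lost without Huh7 control replicate 3). The neutrophil chemokine CXCL8 fell in shRb cells (-1.38, adjusted p = 0.000773) and changed by -0.34 in Huh7 cells (adjusted p = 0.464). UBD in shRb cells, at -1.71, thus ran opposite to TNFAIP3 and IRF1 in the same cells. NFKBIA also rose in both lines, by 0.47 in shRb cells and 0.83 in Huh7 cells (adjusted p = 0.0411 and 0.0168, limma). Only in Huh7 cells did ICAM1 (0.80), GBP2 (0.88) and NFKB2 (0.67) pass as higher (adjusted p = 0.00631, 0.0127 and 0.0334, limma). Their changes in shRb cells were 0.13, 0.15 and -0.03. Over both treatments 6 of the 35 genes were higher in shRb cells and 0 lower. The Huh7 count ran from 1 to 6 with an array left out, with 3, 1, 3 and 2 genes without Huh7 replicates 1, 3, 5 and 6.

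Outputs of the ERK pathway, which lies below RAF, had more falls than rises in both lines, and most of the list did not pass in Huh7 cells. Of 27 genes 14 fell and 1 rose in shRb cells, and 6 fell and 1 rose in Huh7 cells, with a median change of -0.52 in shRb cells and -0.23 in Huh7 cells, beside 0 and 0.02 over all genes. DUSP6, a phosphatase that inactivates ERK, fell by 1.81 in shRb cells (adjusted p = 0.000227, limma) and by 1.50 in Huh7 cells (adjusted p = 0.00432). SPRY1, a feedback inhibitor, fell by 1.59 in shRb cells (adjusted p = 0.000367) and by 1.69 in Huh7 cells (adjusted p = 0.00183). FOSL1, an AP-1 subunit, fell by 2.21 in shRb cells (adjusted p = 0.000103) and by 1.13 in Huh7 cells (adjusted p = 0.0133, lost without Huh7 control replicate 3 or sorafenib replicate 6). HBEGF, a growth factor, was the gene that rose, by 0.75 in shRb cells (adjusted p = 0.00513) and 0.67 in Huh7 cells (adjusted p = 0.0442, past the threshold in 1 of 10 fits with an array left out). In shRb cells the count of falls ran from 9 (without control replicate 7) to 13 with an array left out. In Huh7 cells it ran from 2 to 6, with 3, 2, 4 and 2 falls without Huh7 replicates 1, 3, 5 and 6, and 4 without shRb replicates 7, 9 or 11.

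Targets of YAP and TEAD, transcription regulators that respond to the actin cortex and cell contacts, moved in different directions. Of 20 genes 9 fell and 2 rose in shRb cells, and 0 fell and 3 rose in Huh7 cells, with medians of -0.17 and 0.19. The median difference between the changes was -0.56, against -0.02 over all genes, and 0 of the 20 passed the test of that difference by limma, with 13 at an unadjusted p under 0.05. FJX1 fell in shRb cells, with 4.57 and 5.57 in treated and control cells (adjusted p = 0.0058), and changed by 0.35 in Huh7 cells (adjusted p = 0.512). TGFB2, a growth factor of the transforming growth factor family, fell in shRb cells (-1.30, adjusted p = 0.000786) and changed by 0.04 in Huh7 cells (adjusted p = 0.961). The matricellular gene CCN1 was lower in shRb cells (-0.63, adjusted p = 0.0166, lost without control replicate 7 or 9) and changed by 0.52 in Huh7 cells (adjusted p = 0.133). Its relative CCN2 fell in shRb cells (-1.09, adjusted p = 0.000238), with -0.44 in Huh7 cells (adjusted p = 0.0793). ANKRD1 rose in Huh7 cells (1.21, adjusted p = 0.00216, limma) and changed by 0.35 in shRb cells (adjusted p = 0.0927). The stress-induced GADD45A rose in both lines, by 1.53 in shRb cells and 1.35 in Huh7 cells, as did NUAK2, by 0.79 and 1.94. FJX1 and CCN1 were named after their values were seen. AXL, ARHGEF17 and THBS1 had a lower p than CCN1. They fell in shRb cells (-0.79, -0.71 and -0.51) and changed by -0.02, 0.09 and 0.13 in Huh7 cells. The count of falls in shRb cells ran from 6 (without control replicate 7 or 8) to 9 with an array left out, and the 3 rises in Huh7 cells stayed 3. The 5 genes lay further below the line of equal change than any gene of either list, a position that their choice sets.

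**Figure D3:**
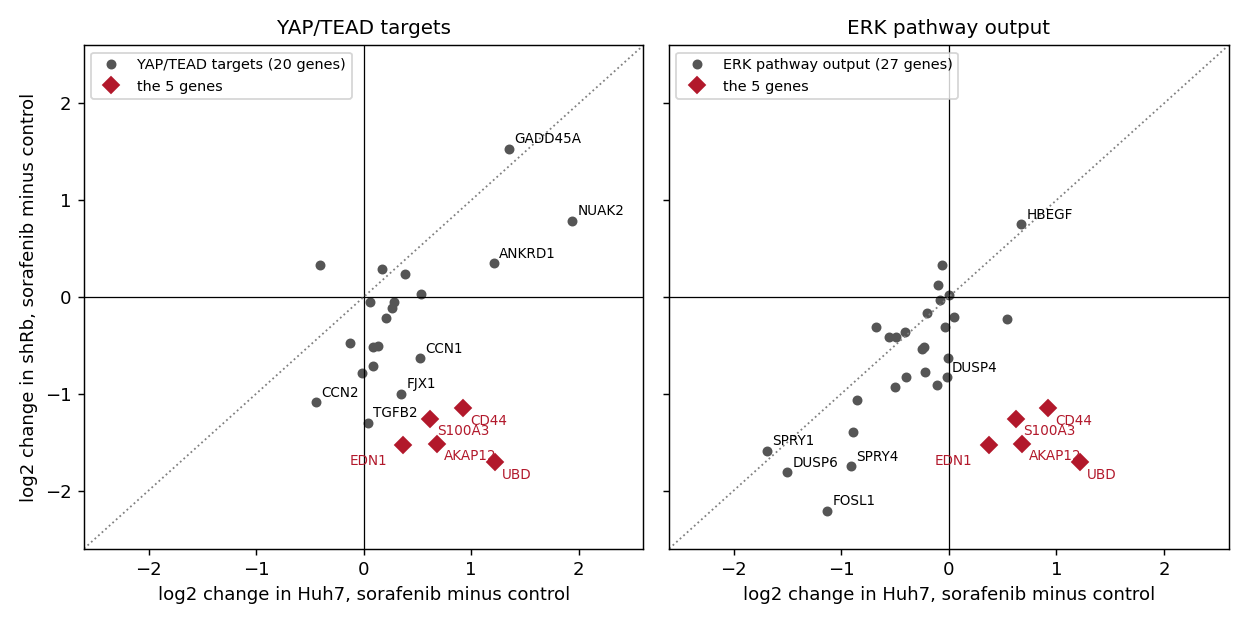
Change in log2 level with sorafenib in shRb cells (vertical axis) against that in Huh7 cells (horizontal axis) for 20 YAP/TEAD targets and 27 ERK pathway outputs (grey points), with the 5 genes as diamonds and the line of equal change dotted. The 5 genes lie at lower right, with Huh7 changes of 0.37 to 1.22 and shRb changes of -1.71 to -1.15, while most ERK outputs lie at lower left and the YAP/TEAD targets spread across the right.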

How the data were processed

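RNA of 10 samples was hybridised to Affymetrix HuGene 2.1 ST arrays by the authors, who normalized the arrays with RMA-sketch in Expression Console. Values were deposited as log2 levels. Array annotation and software version are not given in the sources used here. All 53617 clusters were used. The probe table gave 23866 of them 1 gene symbol, 1852 several and 27899 none, and each gene took its cluster with the highest mean among those with that symbol alone.

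A model with a mean for each of the 4 groups was fitted to all 10 arrays with limma 3.58.1 (R 4.3.3), leaving 6 residual degrees of freedom, with Benjamini-Hochberg adjustment over all clusters and a threshold of 0.05. The 5 genes and all gene lists were chosen with earlier results of these data known. The genes named are the 5, RB1, up to 4 list genes ranked by p in either line, partners, enzymes and receptors of the 5, the 3 genes most like each, and the 3 next outside the threshold. Other genes, such as the neighbours, FJX1, CCN1 and those inside the threshold, were named after their values were seen. The labels call samples of a group biological replicates but do not say whether cultures were separate, so p-values measure the spread between these samples, which may be technical. The labels describe both treated Huh7 samples as the second replicate. The number of arrays limits the precision. Promoters came from a RefSeq table of GRCh38.p14.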

Additional observations from a re-analysis of the deposited data

Results flagged for a closer look

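For 5 genes, with CD44 at its brighter cluster, every treated array lay below every control array in shRb cells. In Huh7 cells every treated array lay above every control array for the same genes. The choice of genes favours such separation, and the share of all genes without overlap is not given, so nothing is read from it. The change in shRb cells minus that in Huh7 cells was -2.20 for AKAP12, -2.08 for CD44, -1.90 for EDN1, -1.88 for S100A3 and -2.93 for UBD. The difference was not tested for these genes, because it chose them. For EDN1 the interval of the Huh7 change, -0.04 to 0.79, includes no change. For UBD the size of the Huh7 change rests on 1 array, with 0.77 without control replicate 1 and 1.66 without control replicate 3. The second CD44 cluster overlapped in both lines, with changes of -0.03 in shRb cells and 0.05 in Huh7 cells.

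ANXA1 was the gene of the partner lists whose change differed between the lines by limma, at -1.31 (adjusted p = 0.0198). Its change was -1.30 in shRb cells and 0.01 in Huh7 cells. ANXA1 is also among the 16 genes past the threshold that chose the 5, and the lists were drawn up with earlier results known. This result is therefore not independent of the choice. With each array left out the adjusted p ran from 0.0444 to 0.144, and it stayed past the threshold only without shRb sorafenib replicate 10.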

How the results depend on the processing

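Repeated quantile normalization and median centring changed no call of the 5 genes. With the second CD44 cluster, the mean difference between the lines of CD44 was 0.25 (adjusted p = 0.518) in place of -0.89, and the cause was not tested. The cluster shared by UBD and GABBR1 gave a mean change with sorafenib of -0.32 (adjusted p = 0.0252). Over all clusters, the difference between the changes called 5 clusters higher and 21 lower. It called 14 and 37 with a trended and robust variance, 12 and 36 among clusters above the median level, and 18 and 59 among clusters with 1 gene symbol, where fewer clusters were tested. Those with 1 symbol gave 358 clusters lower in Huh7 cells and 1590 lower in the mean over lines. With the arrays of a line alone, 820 rose and 1083 fell in shRb cells, and 160 rose and 261 fell in Huh7 cells. The methods' t-test called 65 and 76 after Benjamini-Hochberg adjustment in shRb cells and 0 and 0 in Huh7 cells, with 7576 and 5337 clusters at an unadjusted p under 0.05 (9205 and 6920 by limma). By that test 0 genes of the 8 partner and pathway lists passed in Huh7 cells after adjustment. With the replicate block of shRb arrays, 373 rose and 463 fell. Deviations from the group mean of treated and control shRb samples, matched by the order of their labels, correlated by -0.055 to -0.163. Whether the cultures were paired cannot be told from this.

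With an array left out, 671 to 1060 clusters rose and 811 to 1663 fell in shRb cells (1232 and 1655 with all arrays), and 86 to 463 rose and 113 to 817 fell in Huh7 cells (416 and 678), with the lowest Huh7 counts without Huh7 sorafenib replicate 6. The lines differed by 552 to 1038 clusters higher and 398 to 1056 lower in shRb cells. The mean change was 1142 to 1813 higher and 1749 to 2857 lower, and the difference between changes 2 to 4 higher and 1 to 17 lower. Precision is limited by 2 arrays per Huh7 group and, for CD44, by its dim signal.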
